A study of Mus musculus with 6 samples.

Results

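The miR-3102 and miR-1224 hairpins are described as mirtrons, and their products were read here in TNF-α-treated and untreated mouse vascular smooth muscle cells in culture. Reporters were chosen by name, as mmu-miR-3102, mmu-miR-3102-5p.2 and mmu-miR-1224, which are 3 of the 1078 miRNA reporters on each array. They were chosen because miR-3102-5p.2 had the largest fall of the series and miR-1224 fell too, so their values between the groups are a description and carry no test. The cells came from abdominal aortas of 8-week-old C57BL/6 mice and had been passaged before harvest. The TNF-α group (n = 3 cultures) received this inflammatory cytokine, at a dose and for a time not given in the sources used here, and the control group (n = 3 cultures) was left untreated. Each culture was read on 1 array of 1 colour, and per the series' design text the cultures were grown and harvested independently. Passaged cultures carry no blood flow and no neighbouring endothelium, which limits them as a model of the vessel wall. Precision is limited by the small number of arrays.

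A mirtron is a short intron that folds into a hairpin once the spliceosome has cut it out and it has been debranched. It then skips the nuclear nuclease Drosha, which trims most miRNA precursors, and goes straight to Dicer, which cuts the hairpin into arms that can load into Argonaute proteins. The ends of a mirtron are therefore set by the splice sites, GU at its start and AG at its end, and its level depends on the transcription and splicing of the host gene. The seed, bases 2 to 8 of a mature miRNA, largely decides which mRNAs it pairs with, so neighbouring products of 1 hairpin can have different targets.

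The mature sequences are shown because the members are neighbouring or like-placed pieces of these hairpins, with the seed in capitals, 5′ to 3′, as given by RefSeq on GRCm38.p6. Mir3102 lies on the minus strand at chr7:100882306-100882409, within the span of Arhgef17. Mir1224 lies on the plus strand at chr16:20604452-20604536, within the span of Vwa5b2, which is on the same strand. Exons and introns of the host genes were not used here.
miR-3102-5p: gUGAGUGGccaggguggggcug
miR-3102-5p.2-5p: gGUGGUGCaggcaggagagcc
miR-3102-3p.2-3p: cUCUACUCccugccccagcca
miR-3102-3p: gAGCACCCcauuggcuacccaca
miR-1224-5p: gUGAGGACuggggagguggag
miR-1224-3p: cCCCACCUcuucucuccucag
The reporter miR-3102-5p.2 matches the entry miR-3102-5p.2-5p by name. The reporters miR-3102 and miR-3102* must be the miR-3102-5p and miR-3102-3p arms in some order, and neither the files nor the tables used here say which, so no arm is assigned to them. The reporter miR-1224 is taken as the 5p arm, which bore that name in earlier releases, and miR-1224* as the 3p arm. Probe sequences were not used here.

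The miR-3102 hairpin holds 4 mature products in its 104 bases. From its 5′ end, miR-3102-5p takes positions 1 to 22 and miR-3102-5p.2 follows at positions 23 to 43, with 0 bases between them. On the other side of a loop of 16 bases, miR-3102-3p.2 takes positions 60 to 80 and miR-3102-3p positions 81 to 103. The outer and the inner pair are thus cut end to end from 1 stem. The hairpin of miR-1224 has 85 bases and a single pair of products, at positions 1 to 21 and 65 to 85, so its arms run to both of its ends. It is shown whole for those ends, with the first 2 and last 2 bases in capitals.
Mir1224: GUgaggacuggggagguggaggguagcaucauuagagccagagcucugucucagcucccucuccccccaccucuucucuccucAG
Of 1005 hairpins in the RefSeq table, 77 (7.7%) began with GU and 30 (2.99%) both began with GU and ended with AG, Mir1224 among them. The whole Mir3102 hairpin was not in that table, but its first product starts at position 1 with GU.

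**Figure D1:**
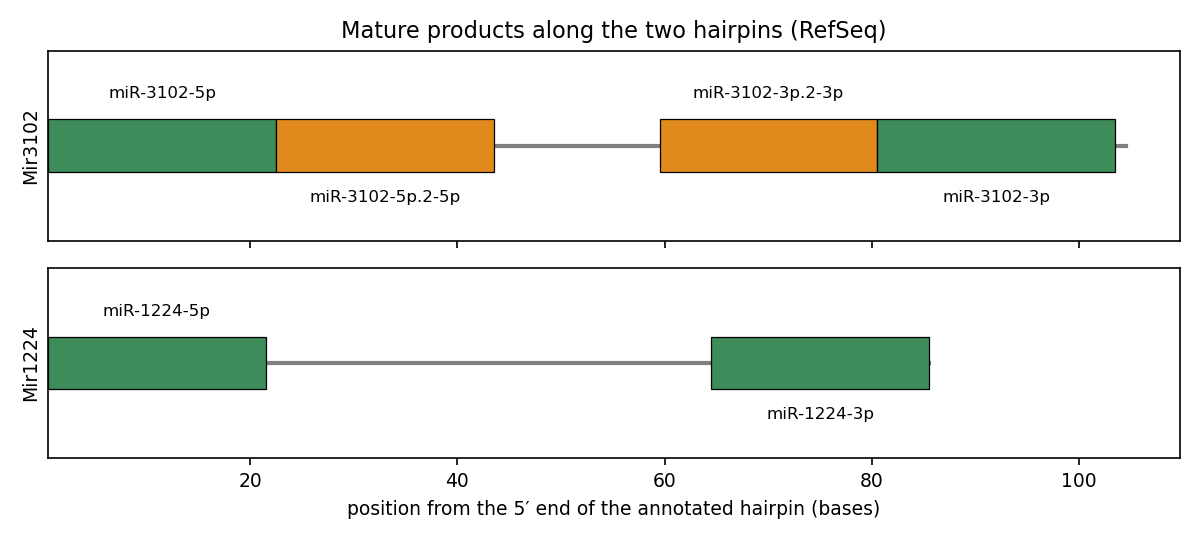
Positions of the mature products along the Mir3102 hairpin (104 bases) and the Mir1224 hairpin (85 bases), counted from the 5′ end, as RefSeq annotates them. Green bars are the outer or only pair and orange bars the inner pair, which lies between positions 23 and 80 of Mir3102.

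The 5′ products of these hairpins were alike in composition. Both hairpins are described as mirtrons, so this may not be independent of the choice of members. The composition of other mirtrons was not compared. Guanine made up 52.4% of miR-3102-5p.2, 61.9% of miR-1224-5p and 59.1% of miR-3102-5p, against a median of 26.9% over 1679 mature mouse miRNAs. A share at least as high was found in 70 (4.17%), 12 (0.71%) and 21 (1.25%) of those miRNAs. Their seeds all differed, and the longest run of bases shared by any pair of the 3 was 5. The 3p products were poor in guanine, with 17.4% in miR-3102-3p and 4.8% in miR-1224-3p. The seed of miR-3102-5p was shared with 1 other mouse miRNA, miR-702-5p (chromosome 5), itself described as a mirtron product.
miR-702-5p: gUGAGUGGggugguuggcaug
No other mature miRNA in the table shared a seed with the remaining 5 products. Guanine content and change were not compared over all reporters, since only 194 of the 642 tested reporters (30.2%) had an exact name in the table.

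The arrays themselves differed between the groups. The background peak, the commonest density on an array, was 81.5 to 90.6 on TNF-α arrays and 65.9 to 76.3 on control arrays, and 238 to 255 against 302 to 338 reporters exceeded the background limit, defined as the peak plus 3 SD of the values below it. That limit was 117 to 126 on TNF-α arrays and 88.1 to 102 on control arrays, so exceeding it asks for more density with TNF-α. A difference between the sets of arrays and an effect of TNF-α cannot be told apart. The smooth muscle markers miR-143 and miR-145 exceeded the limit on all arrays with a summed density of 8799 to 10381 with TNF-α and 7699 to 9551 in controls. Of the markers of other cells, 0 of 4 for blood, 0 of 2 for neurons and 0 of 1 for liver exceeded the limit on any array, with summed densities of 283 to 346 with TNF-α and 271 to 305 in controls for blood, 148 to 161 and 150 to 161 for neurons, and 79.8 to 89.2 and 83.0 to 93.5 for liver. Of the endothelial markers 1 of 2 did, miR-126-3p on 5 arrays (sums of 193 to 233 with TNF-α and 185 to 219 in controls), and of the striated muscle markers 1 of 4, miR-206 (sums of 417 to 475 and 458 to 502), while miR-1a and miR-208a-3p did not. Some of these markers were called lower with TNF-α, as miR-1224 was. miR-206 had densities of 199, 198 and 168 with TNF-α and 277, 256 and 237 in controls, without overlap, and a normalized difference of -0.49 ± 0.07 (SE, limma, adjusted p = 0.00339). miR-122, the liver marker, differed by -0.26 ± 0.06 (limma, adjusted p = 0.0225) below the limit on all arrays, with overlapping densities. Its corrected density reached the minimum of 32 for testing on all control arrays but on 1 TNF-α array. A negative difference is therefore built into its selection, and nothing is read from its call. The part of these cell types in the results was not tested. In such bulk samples fewer cells of a type and less RNA per cell cannot be told apart.

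miR-3102-5p.2, the inner 5′ product, was the member that differed most. Its median density was 419, 400 and 340 on the TNF-α arrays, against 1515, 1294 and 1061 on the control arrays. All TNF-α values lay far below all control values, and the groups did not overlap. Deposited densities did not overlap for 459 of all 1078 reporters (42.6%). The mean density was 386 ± 41.6 with TNF-α and 1290.1 ± 227 in controls (SD, n = 3 each), a ratio of 0.30. It stood at 4.17 to 4.63 times the background peak with TNF-α and at 16.1 to 21.0 times in controls, so it stayed above the limit on every array. After normexp background correction with an offset of 50, log2 and quantile normalization, the values were 8.82, 8.63 and 8.54 with TNF-α and 10.36, 10.13 and 10.05 in controls. The difference was -1.51 ± 0.11 (TNF-α minus control on this log2 scale, SE from limma, n = 3 per group), with a 95% interval of -1.76 to -1.27. That interval takes no account of the choice of this reporter for its fall. Its stated coverage does not hold after such a choice, and it is no test. The offset understates changes, and the difference was -1.62 with an offset of 8 and -1.35 with the larger offset tried.

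The files also give a scatter for each reading. The deposited standard deviation of miR-3102-5p.2 was 7.76% to 13.9% of its density on TNF-α arrays and 5.44% to 6.04% on control arrays, although what it was taken over is not given in the sources used here. Among the arrays of each group, replicate 3 was the lowest for miR-3102-5p.2, and it also had the lowest median density over all reporters of its group, 85.9 with TNF-α and 74.7 in controls. In the authors' processed table the values of miR-3102-5p.2 were 332, 317 and 287 with TNF-α and 1444, 1225 and 1067 in controls, which again do not overlap.

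miR-1224 also lay lower with TNF-α, by a smaller margin. Its density was 1405, 1421 and 1347 on the TNF-α arrays, against 2414, 2459 and 1931 on the control arrays. The TNF-α cultures lay close together, while control replicate 3 was low in its group but still above every TNF-α value. The mean density was 1391 ± 38.9 with TNF-α and 2268 ± 293 in controls (SD, n = 3 each), a ratio of 0.61. It was 15.5 to 16.5 times the background peak with TNF-α and 29.3 to 33.4 times in controls. On the normalized log2 scale the values were 10.54, 10.42 and 10.46 with TNF-α and 10.99, 11.12 and 11.09 in controls. Normalization thus removed the gap between control replicate 3 and its group. The difference was -0.59 ± 0.07 (SE), with a 95% interval of -0.76 to -0.43. This interval too ignores that the reporter was chosen for its fall, and it is no test. The deposited standard deviation of miR-1224 was 4.25% to 7.18% of its density with TNF-α and 2.41% to 3.45% in controls.

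miR-3102, read as a separate product of the hairpin that gives miR-3102-5p.2, did not separate the groups. Its density was 247, 254 and 211 on the TNF-α arrays and 243, 231 and 189 on the control arrays. These values overlapped, and the lowest of each group was again replicate 3. The means were 237 ± 22.9 with TNF-α and 221 ± 28.2 in controls (SD, n = 3 each), at 2.59 to 2.85 and 2.87 to 3.36 times the background peak, above the limit on every array. On the normalized log2 scale the values were 7.92, 7.93 and 7.77 with TNF-α and 7.84, 7.77 and 7.72 in controls. The difference was 0.09 ± 0.07 (SE), with a 95% interval of -0.08 to 0.27. The processed table held 164, 170 and 142 with TNF-α and 173, 162 and 135 in controls. The deposited standard deviation of miR-3102 was 9.97% to 11.2% of its density with TNF-α and 9.03% to 11.3% in controls. Relative to the median change of all tested reporters, the difference of miR-3102 was negative with no scaling between arrays (-0.05) and when arrays were scaled to the median detected reporter (-0.07), so it has no settled sign.

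**Figure D2:**
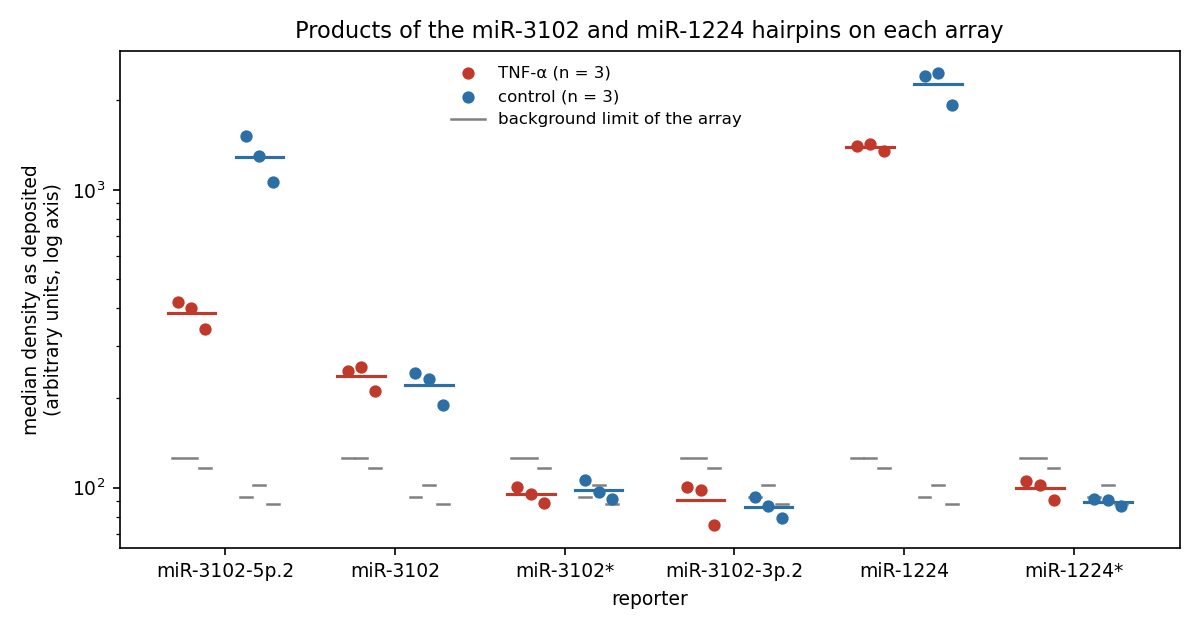
Median density on a log axis for each reporter of the miR-3102 and miR-1224 hairpins, with 1 point per array, a coloured line at each group mean and grey ticks at each array's background limit. For miR-3102-5p.2 the 3 TNF-α arrays (340 to 419) lie below the 3 control arrays (1061 to 1515), those of miR-3102 overlap, and the starred and 3p.2 reporters lie near the limit.

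The difference between the products of the miR-3102 hairpin can be read within each array. The normalized log2 value of miR-3102-5p.2 minus that of miR-3102 was 0.90, 0.71 and 0.77 on TNF-α arrays and 2.52, 2.36 and 2.33 on control arrays. The level of such a difference has no meaning of its own, because the probes differ, but it was lower on every TNF-α array than on every control array. It changed by -1.61 ± 0.08 (SE over arrays, n = 3 per group). The scaling between arrays did not cancel in this change, which was -1.83 with no scaling and -1.84 with median scaling. On the deposited densities the change was -1.84 ± 0.06, and in the processed table with 32 added it was -1.90 ± 0.06. Of the change on the normalized scale, -1.51 was that of miR-3102-5p.2, less the 0.09 of miR-3102.

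miR-1224 and miR-3102-5p.2 differed in size of change too. The normalized log2 value of miR-3102-5p.2 minus that of miR-1224 was -1.92 to -1.73 with TNF-α, against -1.04 to -0.62 in controls. These ranges were separate, and the change was -0.92 ± 0.14 (SE). The value of miR-1224 minus that of miR-3102 was 2.63, 2.50 and 2.69 with TNF-α and 3.15, 3.35 and 3.37 in controls, a change of -0.69 ± 0.09. These pairs were set side by side with their values known, so no test is given.

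The remaining products of both hairpins were at or near background. miR-3102* had densities of 101, 95.2 and 89.1 with TNF-α and 106, 96.8 and 91.8 in controls. These overlap, and miR-3102* exceeded the limit on 2 control arrays and 0 TNF-α arrays. The limit was higher on TNF-α arrays, and the TNF-α value of 101 lay above the control value of 91.8, which exceeded its own limit. On the normalized scale it was 6.44, 6.35 and 6.44 with TNF-α and 6.76, 6.61 and 6.68 in controls, and it passed limma's test as lower (-0.27 ± 0.07, adjusted p = 0.0285). In simulated data more of the calls were false than the threshold of 0.05 allows, which bears on a call so near to it. No fold is given for it, since the control mean does not exceed the lowest signal above the limit on TNF-α arrays. Its call was lost with no scaling (-0.089), with median scaling (-0.13), without control replicates 1 (-0.23), 2 (-0.30) or 3 (-0.27) and without TNF-α replicates 1 (-0.29), 2 (-0.24) or 3 (-0.29). In the processed table its values were 17.1, 11.5 and 12.0 with TNF-α and 36.2, 27.7 and 29.9 in controls, too low to be tested there. With the background peak subtracted, or with the background limit as the filter, miR-3102* was not tested either.

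miR-3102-3p.2, the inner partner of miR-3102-5p.2, exceeded the limit on no array. Its density was 101, 98.1 and 74.8 with TNF-α and 93.0, 86.8 and 79.2 in controls. The groups overlapped, and the normalized difference of -0.16 ± 0.09 did not pass (limma, adjusted p = 0.231). The fall of miR-3102-5p.2 can thus not be followed in its own partner strand at this signal. miR-1224*, the partner of miR-1224, was likewise above the limit on no array, at 105, 102 and 91.2 with TNF-α and 91.8, 91.0 and 86.9 in controls. Its normalized difference was -0.07 ± 0.06 (limma, adjusted p = 0.487). With no scaling both differences were positive, 0.030 for miR-3102-3p.2 and 0.11 for miR-1224*. For both partners no fold is given.

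All 3 members were among the 642 reporters tested, and 2 of them, miR-3102-5p.2 and miR-1224, were among the 63 called lower with TNF-α (9.81% of tested reporters, limma, adjusted p under 0.05, two-sided). Since the same comparison chose them, nothing is read from that count. There were 83 calls of higher reporters (12.9%), so that 146 (22.7%) were called in either direction, and the normalized groups did not overlap for 257 tested reporters (40.0%). Of the 208 tested reporters above the background limit on all arrays, as all 3 members were, 71 (34.1%) were called and 32 (15.4%) were lower. The excess of false calls in simulated data bears on these shares too. miR-3102-5p.2 had the lowest value of all tested reporters. The next was miR-494 at -0.90 ± 0.10, which left a gap in the ranking. miR-1224 was at rank 11 from the bottom, between miR-669h-3p (-0.61 ± 0.10) and miR-714 (-0.59 ± 0.09), from which it differed by less than 1 SE. miR-3102 was at rank 421, in the bulk of the distribution.

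**Figure D3:**
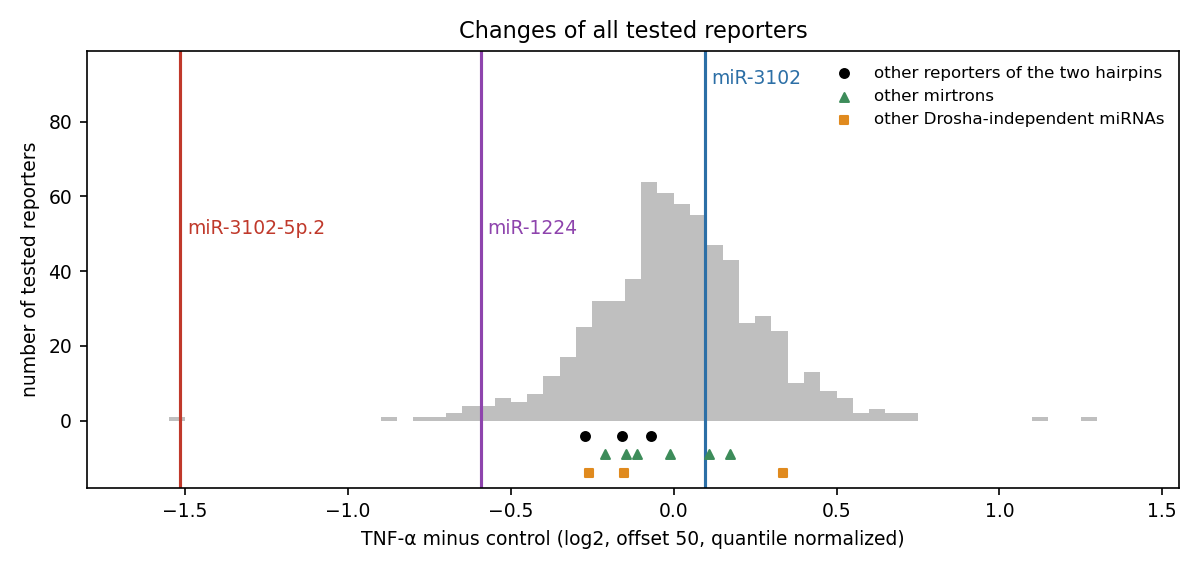
Number of tested reporters by their difference between TNF-α and control cultures on the log2 scale, over 642 reporters, with the 3 members as vertical lines and 3 lists as symbols under the bars. miR-3102-5p.2 stands apart at -1.51, miR-1224 lies in the lower tail at -0.59, and the other mirtrons lie between -0.21 and 0.17.

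No reporter of another mirtron passed the test under the main setting. Of 8 reporters of the miR-702, miR-877, miR-1981 and miR-1982 hairpins, 6 were tested, 0 rose and 0 fell by limma, beside 22.7% of all tested reporters called, and 1 had an unadjusted p under 0.05. Their median difference was -0.06, against 0.01 over all tested reporters. Most of these reporters were dim, since only miR-1982* exceeded the limit on at least 3 arrays. miR-1982* had densities of 114, 147 and 131 with TNF-α and 123, 137 and 130 in controls, which overlap, and its difference was -0.15 ± 0.13 (limma, adjusted p = 0.463). That value rests on TNF-α replicate 1, the lowest array, without which the difference was 8.94e-05. Which arm the reporter miR-702 reads is not given in the sources used here, so it is not taken as the product with the seed of miR-3102-5p. This reporter of miR-702 was at 107, 104 and 81.3 with TNF-α and 102, 95.4 and 91.9 in controls. Its normalized difference was -0.21 ± 0.09 (limma, adjusted p = 0.111), and it exceeded the limit on 2 control arrays and 0 TNF-α arrays, whose limit is higher. miR-877 (-0.11 ± 0.11) and miR-877* (-0.010 ± 0.10) did not pass, and both have no settled sign, since leaving out 1 array gave -0.20 to 0.00083 for miR-877 and -0.07 to 0.07 for miR-877*. miR-1981 (0.17 ± 0.08) and miR-1981* (0.11 ± 0.09) exceeded the limit on no array and did not pass. Both entered the test through their TNF-α arrays alone, where a corrected density of at least 32 was needed on 3 arrays. That of miR-1981 was 38.4 to 49.9 with TNF-α and 23.7 to 25.4 in controls, and that of miR-1981* was at least 34.9 with TNF-α and at most 28.7 in controls. A positive difference is therefore built into their selection, and it enters the median above. Their values of 0.36 and 0.33 for miR-1981 and of 0.31 and 0.28 for miR-1981*, which passed as higher with no scaling and with median scaling, are given for completeness and nothing is read from them.

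A further list was drawn from sequence alone. The 30 hairpins that begin with GU and end with AG had reporters for 6, and besides miR-1224 these numbered 11, of which 8 were tested. By limma 0 rose and 0 fell, beside 22.7% of all tested reporters called, and 0 had an unadjusted p under 0.05. So few reporters do not show a difference from that share. Their median difference was -0.04, within a range of -0.15 to 0.17 whose upper end is miR-1981. Of these 8, 5 belong to the mirtron list above, 1 is miR-1224*, and miR-20a and miR-194-2* are products of ordinary polycistronic hairpins.

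A last list held other miRNAs made without Drosha. miR-320 and miR-484 come from short capped transcripts that pass to Dicer directly, and miR-668 has been described as an endogenous short hairpin RNA. Of 4 reporters of these hairpins 3 were tested, 1 rose, 1 fell and 1 did not pass, beside 12.9% of all tested reporters called higher and 9.81% called lower. The median was -0.15 against 0.01 over all tested reporters, and with so few reporters nothing is read from these counts. miR-320 was at 1508, 1760 and 1426 with TNF-α and 2100, 2072 and 1819 in controls. The groups did not overlap, and it fell by the test (-0.26 ± 0.07, limma, adjusted p = 0.0279). miR-484 was at 144, 155 and 134 with TNF-α and 116, 104 and 93.7 in controls, without overlap, and it rose (0.34 ± 0.08, limma, adjusted p = 0.0221). Its values on control replicates 2 (104) and 3 (93.7) lay near the limits of those arrays, 102 and 88.1. The background peak was also higher on TNF-α arrays, which limits what the separate densities show. miR-320* (-0.15 ± 0.07, limma, adjusted p = 0.16) did not pass. The excess of false calls in simulated data is a caution for both calls, as for every call given here. The call of miR-320 was lost with an offset of 8 (-0.27), with the replicate number as a block (-0.26), without control replicates 1 (-0.26), 2 (-0.25) or 3 (-0.23), and without TNF-α replicates 1 (-0.25) or 3 (-0.24). That of miR-484 was lost with the block (0.34), without control replicates 2 (0.30) or 3 (0.31), and without TNF-α replicates 2 (0.31) or 3 (0.34).

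The reporters whose normalized log2 values ran most like those of each member were found by Pearson's r over the 6 arrays, among the other 641 tested reporters. For miR-3102-5p.2 they were miR-1966 (0.994), miR-3110* (0.989) and miR-323-3p (0.988), for miR-1224 miR-2861 (0.993), miR-467d* (0.986) and miR-122 (0.986), and for miR-3102 miR-681 (0.972), miR-669i (0.949) and miR-664 (0.930). These values describe the 6 arrays only, which share the 2 groups: 47 reporters exceeded 0.9 with miR-3102-5p.2 and 38 with miR-1224, but 9 with miR-3102. Pearson's r does not depend on the size of a change, so a high r does not mean a like change. miR-1966 differed by -0.19 ± 0.06 and miR-3110* by -0.43 ± 0.07, where miR-3102-5p.2 differed by -1.51. miR-323-3p, miR-122, miR-681 and miR-664 exceeded the background limit on no array. Such dim reporters can pass the filter through the group where they are brighter, as miR-122 did through the control arrays. A group pattern is then built into their selection and so into r. The mean density of miR-664 was 96.4 with TNF-α and 73.7 in controls. Nothing is read from the likeness of these dim reporters.

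The direction of miR-3102-5p.2 and miR-1224 was the same under each of the 19 alternatives. miR-3102-5p.2 ranged from -1.89 in the authors' processed table to -1.35 with the larger offset, and with 1 array left out its highest value was -1.39. miR-1224 ranged from -0.78 with median scaling to -0.54 without control replicate 2. Relative to the median change of all tested reporters, which was 0.14 with no scaling and -0.12 in the processed table, miR-3102-5p.2 was at -1.91 to -1.36 and miR-1224 at -0.87 to -0.55. miR-3102 stayed between 0.01 and 0.15.

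**Figure D4:**
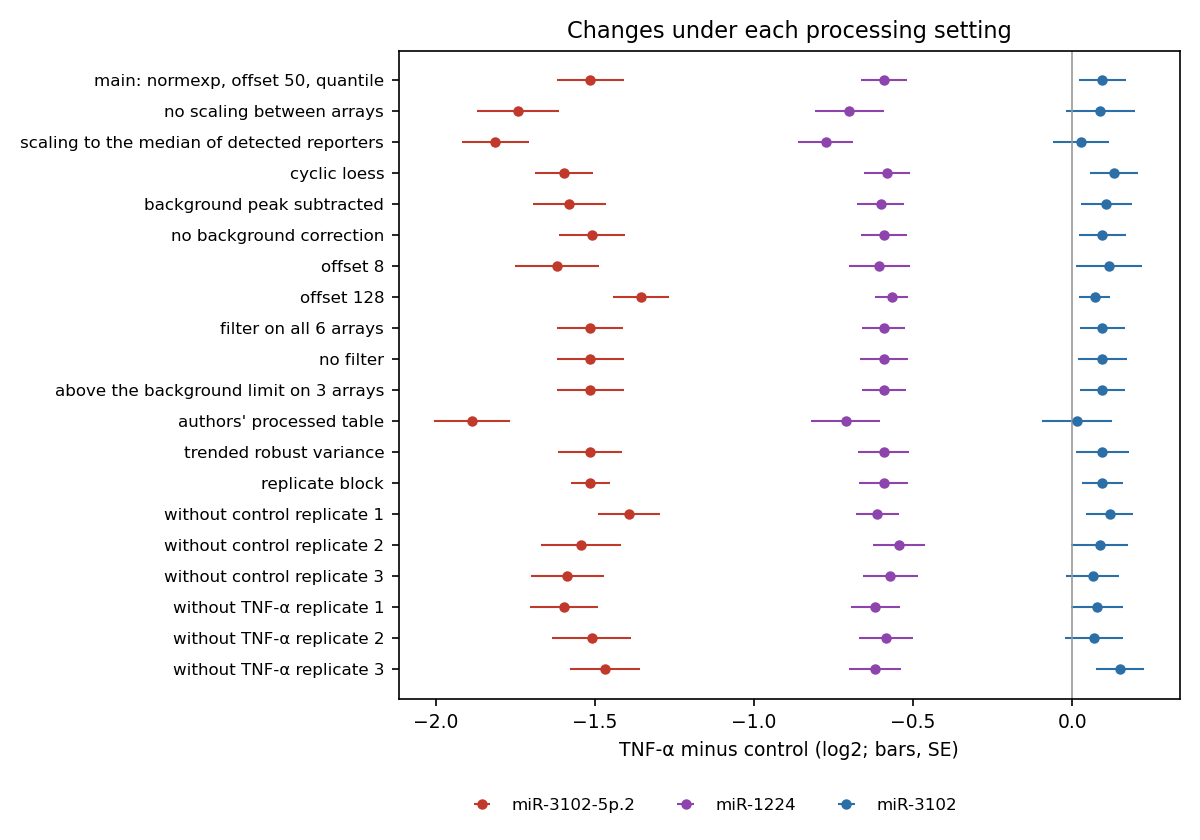
Difference between TNF-α and control cultures on the log2 scale with its SE for miR-3102-5p.2 (red), miR-1224 (purple) and miR-3102 (blue) under the main setting and 19 alternatives, 1 per row. miR-3102-5p.2 stays between -1.89 and -1.35, miR-1224 between -0.78 and -0.54, and miR-3102 between 0.01 and 0.15.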

How the data were processed

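Per the labels' protocols, poly(A) tails were added to total RNA, a tag was ligated to them and Cy5 was the dye. The authors deposited for each array a median density and a standard deviation per reporter, which are linear intensities per the file headers, with background not subtracted. They also deposited a table of processed intensities of the same arrays, whose scaling is not given in the sources used here. Densities were background corrected (normexp, offset 50), taken to log2 and quantile normalized in limma 3.58.1 under R 4.3.3. Reporters with a corrected density of 32 on at least 3 arrays were tested with the group as the only term (two-sided, Benjamini-Hochberg, threshold 0.05). The procedure was tested on simulated data, where large changes were recovered and the share of false calls was above the threshold. Signal in the simulated data had the same log2 spread for every reporter, so that share is not an estimate for these arrays. The excess remains a caution for every call, also those of the cell type markers. Members, lists and tests were chosen with earlier results of these data known, and the list of hairpins with GU and AG ends was added after seeing the files. Named were the members, the other reporters of their hairpins, shared seeds, the fixed lists, rank neighbours and the 3 most alike reporters. Alternatives changed the scaling, background, offset, filter, source, variance model, replicate block and arrays used. The labels number 2 TNF-α cultures alike, so numbers follow the sample titles.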

Additional observations from a re-analysis of the deposited data

How the results depend on the processing

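The direction of miR-3102-5p.2 and miR-1224 was the same under all 19 alternatives, which reprocess the arrays that chose them. By more than the spread between replicates, miR-3102-5p.2 moved with no scaling (-1.74), median scaling (-1.81), the larger offset (-1.35) and the processed table (-1.89). miR-1224 so moved with no scaling (-0.70), median scaling (-0.78) and the processed table (-0.71), and miR-3102 in that table (0.015). The call of miR-3102* was lost with no scaling (-0.089), with median scaling (-0.13) and with each array left out (-0.30 to -0.23). That reporter was tested under 16 of the 19 alternatives. The change of miR-3102-5p.2 minus that of miR-3102, -1.61, became -1.83 with no scaling, -1.84 with median scaling, -1.73 with cyclic loess, -1.74 with an offset of 8, -1.43 with the larger offset and -1.90 in the authors' table. The number of called reporters, 146, became 227 with median scaling and 70 to 91 with 1 array left out, where fewer reporters and arrays were tested. Left-out arrays gave -1.60 to -1.39 for miR-3102-5p.2, -0.62 to -0.54 for miR-1224, 0.07 to 0.15 for miR-3102 and -1.68 to -1.51 for the difference of the products. The split was 83 higher and 63 lower, against 163 and 41 with no scaling, 158 and 69 with median scaling, and 39 and 81 in the processed table.

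With the replicate number as a block (replicate block), 103 reporters were called and miR-3102-5p.2 was -1.51, miR-1224 -0.59 and miR-3102 0.09. Deviations of same-numbered arrays correlated at 0.04, 0.02 and 0.15, so the numbers were not taken as pairs. Dim signal limits miR-3102*, miR-3102-3p.2 and miR-1224*. The causes of these shifts were not tested.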
